A study of Mus musculus with 2 samples.

Results

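The heat shock proteins and chaperonins are the protein-folding helpers of the cell, and their genes were taken from the table by symbol: Hspa, Hspb, Hspd, Hspe, Hsph, Hsp90, Trap1, Dnaja, Dnajb, Dnajc, Cct and Tcp1 names, with Hsf1, the transcription factor that controls many of them. The rule found 84 of 31252 rows, placed by textbook knowledge in the cytosol (40 genes), the endoplasmic reticulum (13), the mitochondrion (9), vesicles (3), the nucleus (3) and a group of other or uncertain place (16). The 2 RNA-seq libraries, 1 labelled Ctrl and 1 labelled OE, were made from ventral midbrain tissue of mice at 2 months of age, to find which genes differ when COUP-TFII is overexpressed in dopaminergic neurons. The strain is given as incipient congenic C57BL/6, and the labels give no genotype beyond Ctrl and OE. By the cross in the study's methods, Ctrl and OE littermates both carry Slc6a3 IREScre, which drives Cre from the dopamine transporter gene, a single floxed Tfam allele that Cre deletes in the same neurons, and the ROSA26-tdTomato reporter. OE mice carry in addition the ROSA26 allele CAG-S-COUP-TFII, from which Cre releases COUP-TFII expression.

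Chaperones bind unfolded proteins and release them in cycles driven by ATP. HSP70 proteins do so with J-domain proteins (the Dnaj genes), which bring them their clients, and with HSP110 proteins, which exchange their nucleotide, while HSP90 finishes the folding of kinases and receptors and the ring-shaped chaperonin TRiC folds actin and tubulin. Mitochondria and the endoplasmic reticulum keep chaperones of their own, encoded in the nucleus, and dopaminergic neurons are often studied for the load that misfolded proteins and damaged mitochondria put on this system.

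Nr2f2, the gene for COUP-TFII, had 637 and 377 counts in the libraries labelled Ctrl and OE, in that order here and below, which is a log2 difference (labelled OE over labelled Ctrl) of -1.07 with a counting interval from -1.26 to -0.88. The overexpressed gene thus went against the labels, so every direction below is that of the library labelled OE and not of the genotype. The libraries held 16984336 and 21326632 counts, so that a gene with no difference had 1.24 times as many counts in the library labelled OE after scaling by the TMM method. With 1 library per group there is no replicate check and no test, and the 95% counting intervals (exact Clopper-Pearson) reflect the depth of counting alone: they set 1 library against another and say nothing of the spread between mice. The label also calls the cell type dopaminergic neurons, but the material was whole ventral midbrain: Mbp, the myelin protein of oligodendrocytes, had 128974 and 139810 counts, against 2499 and 9354 for Th, the enzyme that makes L-DOPA in dopaminergic neurons. In bulk tissue, fewer cells of a type and less RNA per cell cannot be told apart.

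Promoter sequences are shown for the members that hold a motif of the stress response, since the heat shock element fell in cytosolic and mitochondrial members and the endoplasmic reticulum stress element in members of that compartment. They come from RefSeq promoter windows on GRCm38.p6, 250 bases before to 50 after a start, which matched 68 of the 84 members. The heat shock element, to which HSF1 binds, was searched on both strands as GAA, TTC and GAA with 2 bases of any kind between them, and 4 member genes held it, Hspd1, Hspe1, Hsph1 and Dnajb6, against 179 of 27025 genes (0.662%) with a promoter in the table. Hspd1 and Hspe1, the chaperonin of the mitochondrial matrix and its lid, start 216 bases apart on opposite strands and share the stretch chr1:55088025-55088131, written here on the strand of Hspe1. Capitals mark a pair of overlapping matches, and for Dnajb6 and Hsph1 only the surroundings of the match are given.
Hspe1 and Hspd1, chr1:55088025-55088131, plus strand: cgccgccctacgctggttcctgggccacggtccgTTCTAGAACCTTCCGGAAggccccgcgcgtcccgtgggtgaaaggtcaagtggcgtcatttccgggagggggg
Dnajb6, chr5:29735844-29735872, plus strand: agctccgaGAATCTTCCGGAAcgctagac
Hsph1, chr5:149636280-149636308, minus strand: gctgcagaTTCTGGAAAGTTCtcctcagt
The endoplasmic reticulum stress element was searched on both strands as CCAAT and CCACG with 9 bases of any kind between them, and 3 members held it, against 37 of 27025 genes (0.137%). All 3, Hspa5, Hsp90b1 and Dnajc3, encode chaperones or partners of the endoplasmic reticulum lumen. The promoter of Hsp90b1 held 2 matches, both in capitals.
Hspa5, chr2:34772020-34772048, plus strand: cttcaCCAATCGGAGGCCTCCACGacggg
Hsp90b1, chr10:86705510-86705694, minus strand: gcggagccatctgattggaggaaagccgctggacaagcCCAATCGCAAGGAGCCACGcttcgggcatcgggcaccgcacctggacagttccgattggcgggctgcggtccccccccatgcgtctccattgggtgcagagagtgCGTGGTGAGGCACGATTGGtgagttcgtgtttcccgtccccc
Dnajc3, chr14:118937767-118937905, plus strand: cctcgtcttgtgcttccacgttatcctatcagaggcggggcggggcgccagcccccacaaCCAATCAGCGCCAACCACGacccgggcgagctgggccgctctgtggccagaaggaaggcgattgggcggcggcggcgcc
A match describes these letters in this window and is not evidence that a factor binds there.

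Of the 84 members, 73 had a mean of at least 10 counts and were compared. Their differences were small: the median log2 difference was 0.067, against 0.0046 over all 15246 genes compared, and most members lay a little above 0. The members made up 1.36% and 1.42% of all counts in the libraries, and their summed counts differed by log2 0.085 (0.077 to 0.093). By the fold of log2 0.2, 10 members were higher in the library labelled OE and 4 were lower, which are smaller shares than over all genes, of which 17.9% were higher and 16.6% were lower. With the added demand that the counting interval leave out 0, 6 members were higher (all genes 9.90%) and 1 was lower (all genes 9.16%).

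More of the members than of all genes lay on the higher side. Of the 73, 53 were higher by any amount, or 72.6%, against 51.0% of all genes. The counting interval lay above 0 for 25 of them (34.2%, all genes 15.8%) and below 0 for 3 (all genes 14.4%). Abundant genes have narrower intervals, so the tally was repeated where the mean was at least 1000 counts, a split chosen after the values were seen. Of 41 such members, 34 were higher (82.9%, all such genes 52.4%), 21 had an interval above 0 (51.2%, all such genes 25.4%) and 2 had one below 0 (all such genes 21.8%). The 3 members with an interval below 0 were Hsf1, Dnajb2 and Hspa12a.

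**Figure D1:**
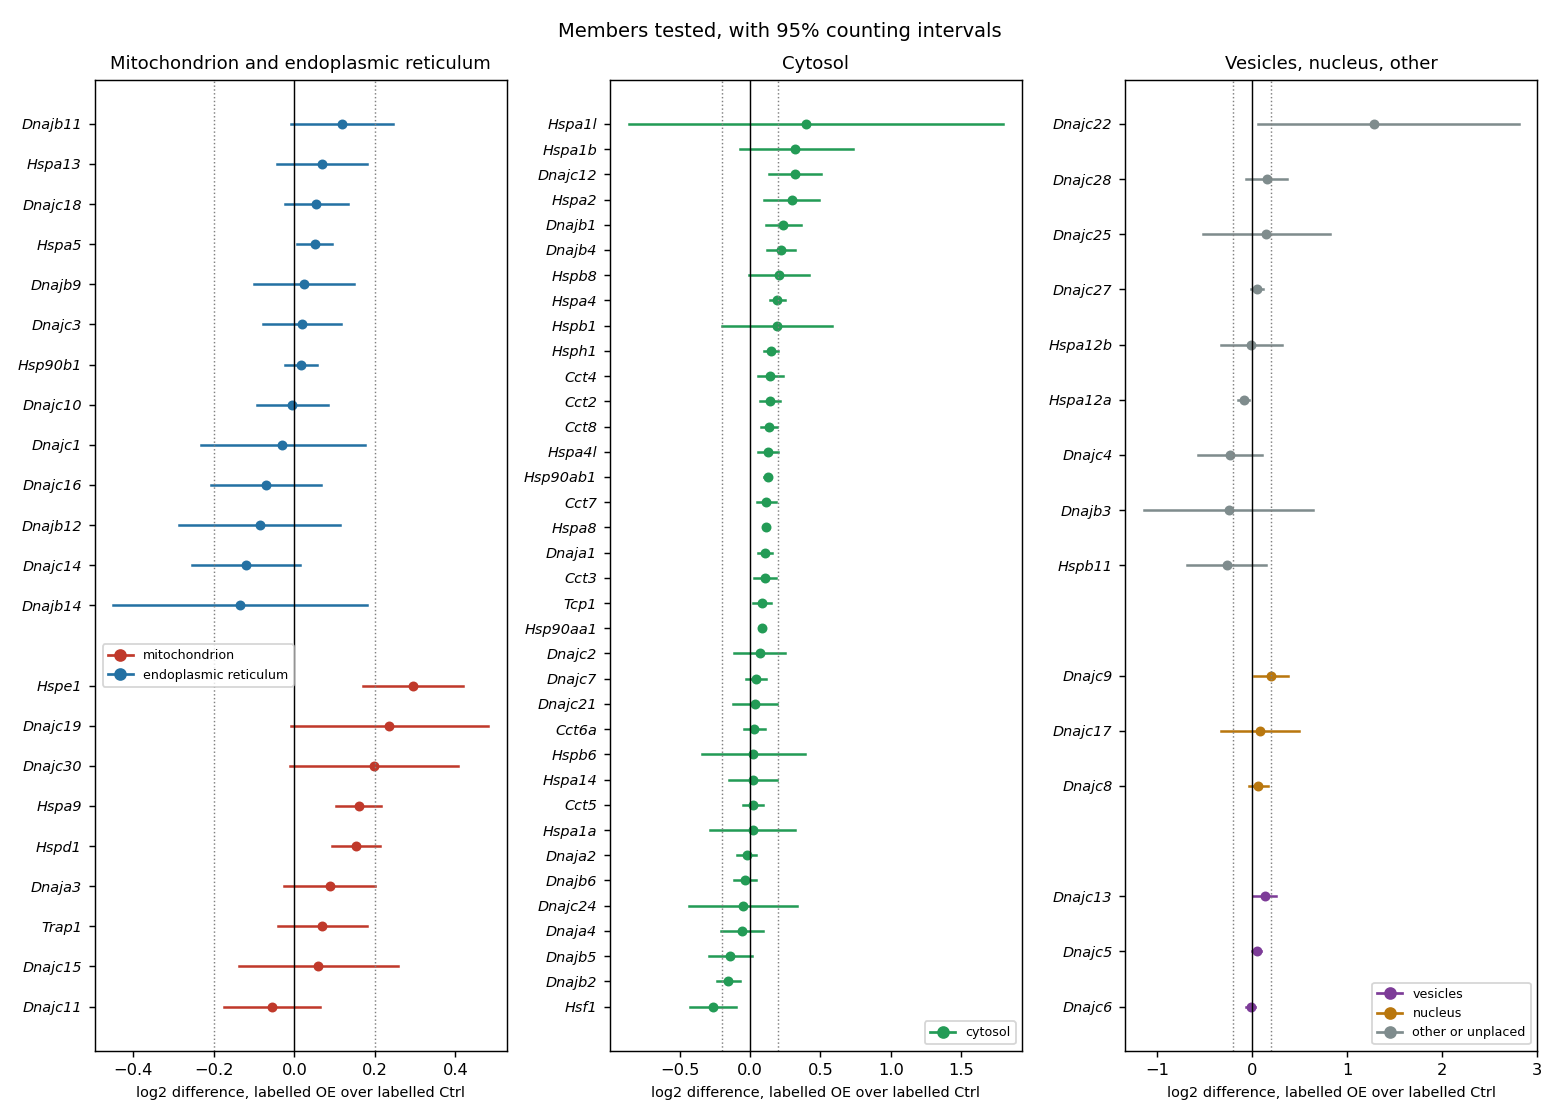
Each point is 1 of the 73 members compared, placed on the x axis by its log2 difference (labelled OE over labelled Ctrl), and each line is its 95% counting interval; dotted lines stand at log2 0.2 in both directions, and the panels have different x ranges. The 13 members of the endoplasmic reticulum lie between -0.13 and 0.12, the 9 mitochondrial ones between -0.06 and 0.29, and Hsf1 is the lowest of the cytosol at -0.26.

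The most abundant members were the constitutive chaperones of the cytosol. Hspa8, the HSP70 that every cell makes, and the pair of cytosolic HSP90 genes, Hsp90aa1 and Hsp90ab1, together held 45.1% and 45.8% of the members' counts. Hspa8 had 48408 and 65070 counts, or 0.285% and 0.305% of all counts, a log2 difference of 0.11 (0.10 to 0.13). Hsp90aa1, the inducible form, had 29301 and 38587 counts and differed by 0.08 (0.06 to 0.11). Hsp90ab1, the constitutive form, had 26262 and 35556 counts and differed by 0.12 (0.10 to 0.15). All 3 were slightly higher in the library labelled OE, with narrow intervals that leave out 0. Per kilobase of transcript, the level of Hsp90aa1 was 0.857 and 0.834 times that of Hsp90ab1.

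Hspa1a and Hspa1b, the HSP70 genes that heat and other stress induce most, were at a low level. Hspa1a had 168 and 211 counts, a difference of 0.02 (-0.28 to 0.32), and Hspa1b had 86 and 134, a difference of 0.32 (-0.07 to 0.73). Their transcripts are near copies, so that reads can be shared out wrongly between them, and their sum of 254 and 345 counts differed by 0.13 (-0.11 to 0.37). Per kilobase, Hspa8 stood at 231 and 228 times the level of the pair. Hspa2, an HSP70 best known from the testis, had 359 and 548 counts and was higher by 0.30 (0.10 to 0.49). The 3 HSP110 genes, nucleotide exchange factors of HSP70, were all higher with intervals above 0. Hspa4 had 4871 and 6920 counts and differed by 0.19 (0.14 to 0.25), Hsph1 by 0.15 (0.10 to 0.20) and Hspa4l by 0.13 (0.06 to 0.20). All 11 cytosolic genes of the HSP70, HSP110 and HSP90 families lay above 0 (all genes 51.0%), Hspa1l among them on 9 and 15 counts. Their median was 0.13, and 7 had an interval above 0 (15.8% of all genes, 25.4% of genes that average 1000 counts or more).

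The J-domain proteins of the cytosol were less uniform. Their median over 13 genes was 0.037, with 7 above 0 and 6 below. Dnajb1, the partner of the inducible HSP70s, had 917 and 1343 counts and was higher by 0.24 (0.12 to 0.36). Dnajb4, its close relative, had 1365 and 1974 counts and was higher by 0.22 (0.12 to 0.32). Dnajc12, a co-chaperone of the aromatic amino acid hydroxylases, tyrosine hydroxylase among them, had 393 and 609 counts and was higher by 0.32 (0.13 to 0.51). These 3 of 13, all higher in the library labelled OE, were the cytosolic J-domain genes past log2 0.2, a share of 23.1% that is close to the 17.9% of all genes. In the other direction, Dnajb2, a neuronal co-chaperone that passes clients to the proteasome, had 2294 and 2560 counts and a difference of -0.15 (-0.24 to -0.07), so that its interval left out 0 while its size did not reach 0.2.

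The abundant partners of Hspa8 sat close to it or to 0. Dnaja1 had 5912 and 7919 counts and a difference of 0.11 (0.06 to 0.16), nearly that of Hspa8. Dnaja2 had 3100 and 3785 counts and differed by -0.03 (-0.09 to 0.04). Dnajb6, which keeps aggregation-prone proteins soluble and holds a heat shock element in its promoter, had 2359 and 2854 counts and differed by -0.04 (-0.12 to 0.04). Dnajc7, which also binds HSP90, had 2787 and 3566 counts and differed by 0.04 (-0.03 to 0.11). For Dnaja2, Dnajb6 and Dnajc7 no difference was detectable at this depth.

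Hsf1, the master regulator of the heat shock response, was lower in the library labelled OE while most of the genes it is known to control were not. It had 611 and 632 counts, a log2 difference of -0.26 (-0.43 to -0.10), and it was the only member past log2 0.2 in the lower direction with an interval that leaves out 0. Of 17 textbook targets of HSF1, 12 of them members, 16 lay above 0 (all genes 51.0%), and their median was 0.13. The interval lay above 0 for 11 of the 17 (15.8% of all genes, 25.4% of genes that average 1000 counts or more). Without the 12 members, the median of the other 5 was 0.086 and 4 of 5 lay above 0. Of these, Bag3, a co-chaperone that steers HSP70 clients to autophagy, had 133 and 265 counts and was higher by 0.68 (0.38 to 0.99). Cryab, the small heat shock protein alpha B-crystallin, which is abundant in oligodendrocytes, had 3536 and 3687 counts and was lower by 0.25 (-0.32 to -0.19 on the log2 scale). Of the other heat shock factors, Hsf2, Hsf4 and Hsf5 had intervals that include 0, Hsf5 at 10 and 18 counts, and Hsbp1, which binds HSF1, had 2206 and 3003 counts and a difference of 0.13 (0.05 to 0.21).

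The small heat shock proteins hold unfolded proteins without using ATP, and those with an Hspb name were little expressed, far below Cryab, which is of the same family but not a member by its symbol. Hspb8 had 315 and 451 counts and a difference of 0.20 (-0.01 to 0.42), and Hspb1 had 96 and 136 and a difference of 0.19 (-0.20 to 0.58). Hspb11, an intraflagellar transport protein despite its name, had 97 and 100 counts and a difference of -0.27 (-0.69 to 0.15). All 4 Hspb genes that could be compared had intervals that include 0, so no difference was detectable in them at this depth, unlike in Cryab.

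The chaperonin TRiC is a double ring of 8 different subunits, and the genes for all 8 were well expressed and lay above 0. Their differences ran from 0.02 for Cct5 to 0.14 for Cct4, with a median of 0.11, and 6 of 8 had an interval above 0 (25.4% of all genes that average 1000 counts or more, as all 8 do). Cct8, the subunit with the highest level per length, had 4056 and 5534 counts and a difference of 0.14 (0.08 to 0.19). Tcp1, the alpha subunit, had 3587 and 4726 counts and a difference of 0.08 (0.02 to 0.15). Cct5, the epsilon subunit, had 3076 and 3876 counts and a difference of 0.02 (-0.05 to 0.09). The summed counts of the 8 subunits, 22968 and 30536, differed by 0.098 (0.073 to 0.122). The subunits kept their order: per kilobase, normalized counts ran from 853 for Cct4 to 1888 for Cct8 in the library labelled Ctrl, a ratio of 2.21, and from 943 to 2074 in the library labelled OE, a ratio of 2.20. Their testis-type relatives Cct6b and Cct8l1 had 5 counts at most.

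**Figure D2:**
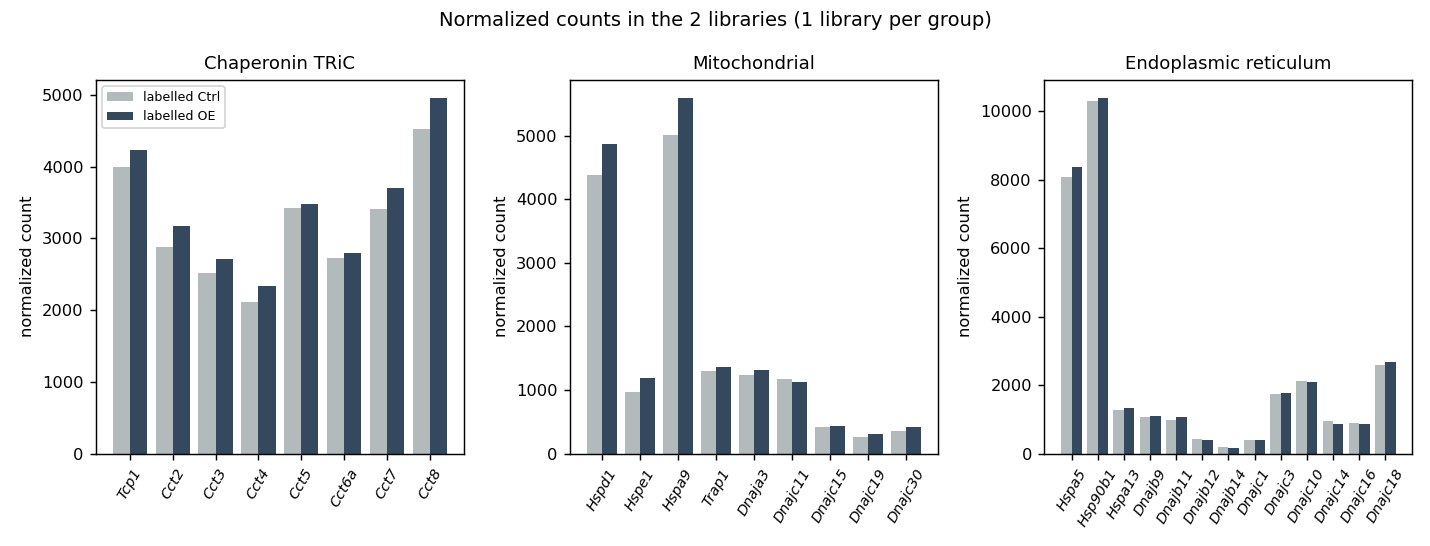
Bars give the normalized count (y axis, from 0, with a different range in each panel) of the 8 TRiC subunits, the 9 mitochondrial members and the 13 members of the endoplasmic reticulum in the library labelled Ctrl (light) and the library labelled OE (dark), with 1 library per group and so no error bar. The dark bar is the higher of each pair for all 8 TRiC subunits and for 8 of 9 mitochondrial genes, and for 7 of 13 genes of the endoplasmic reticulum.

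The mitochondrial members had the highest median of the 3 main compartments, 0.15, and 8 of 9 lay above 0 (all genes 51.0%). Hspd1 (HSP60), which folds imported proteins in the matrix, had 3926 and 5425 counts and a difference of 0.15 (0.09 to 0.21). Hspe1 (HSP10), the lid of the same chaperonin, had 872 and 1329 counts and a difference of 0.29 (0.17 to 0.42). Both genes share the promoter shown above, and both were higher in the library labelled OE. Their sum of 4798 and 6754 counts differed by 0.18 (0.13 to 0.23). Per kilobase, the level of Hspe1 was 0.695 times that of Hspd1 under the label Ctrl and 0.767 times under OE.

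Hspa9 (mortalin), the HSP70 that pulls precursor proteins through the inner membrane, had 4496 and 6239 counts and a difference of 0.16 (0.10 to 0.22), close to that of Hspd1. Trap1, the mitochondrial HSP90, had 1162 and 1515 counts and a difference of 0.07 (-0.04 to 0.18). Dnaja3, the J-domain partner of Hspa9, had 1112 and 1468 counts and a difference of 0.09 (-0.03 to 0.20). The remaining 4 mitochondrial genes, all of the J-domain C class, lay between -0.06 and 0.23, and none of their intervals left out 0. Only Hspd1, Hspe1 and Hspa9 among the 9 had an interval above 0 (15.8% of all genes, 25.4% of genes that average 1000 counts or more). Of these, only Hspe1 was also past log2 0.2 (all genes 9.90%). The mitochondrial partner genes outside the member list, 10 genes such as nucleotide exchange factors and proteases, had a median of 0.019. Of the 10, 5 lay above 0 (all genes 51.0%) and 1 was higher past log2 0.2 (all genes 17.9%). That gene was Hscb, a J-domain protein of iron-sulfur cluster assembly, with 48 and 86 counts and a difference of 0.52.

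The members of the endoplasmic reticulum stood close to 0. Their median was 0.016, and 7 of 13 lay above 0 (all genes 51.0%). None was past log2 0.2 in either direction (all genes 17.9% higher and 16.6% lower). Membrane J-domain genes supplied much of the lower side: Dnajb12, Dnajb14, Dnajc14 and Dnajc16 lay at -0.09, -0.13, -0.12 and -0.07, and Dnajc18 at 0.05. The intervals of all of these include 0. Without this membrane group the median of the compartment was 0.021. Hspa5 (BiP), the HSP70 of the lumen and the best known marker of endoplasmic reticulum stress, had 7250 and 9325 counts and a difference of 0.05 (0.01 to 0.09), the only one of the 13 with an interval above 0. Scaled by total counts, Hspa5 differed by 0.03 (-0.01 to 0.08), so that no gene of the endoplasmic reticulum then had an interval above 0. Hsp90b1 (GRP94), the HSP90 of the lumen, had 9230 and 11596 counts and a difference of 0.02 (-0.02 to 0.06). Dnajc10, a J-domain protein that reduces disulfide bonds, had 1892 and 2341 counts and a difference of -0.01 (-0.09 to 0.08). Dnajc3, which holds the stress element shown above, as Hspa5 and Hsp90b1 do, had 1555 and 1957 counts and a difference of 0.02 (-0.08 to 0.12). The counting intervals of Hspa5 and Hsp90b1 reach at most 0.09.

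The wider list of the endoplasmic reticulum stress response lay a little higher than the members of that compartment. Of 19 textbook targets, 6 of them members, 16 lay above 0 (all genes 51.0%), with a median of 0.050. Past log2 0.2, 2 were higher (all genes 17.9%). Without the members the median was 0.061 over 13 genes. A second list, of 11 partner genes of the endoplasmic reticulum, is not separate: it shares Calr, Creld2, Hyou1, Manf, Pdia4, Pdia6 and Sdf2l1 with the targets. Its median was 0.064, and 3 were higher past log2 0.2 (all genes 17.9%), 2 of them with an interval above 0 (all genes 9.90%). Those were Manf, a secreted protein, with 671 and 988 counts and a difference of 0.24, and Sil1, a nucleotide exchange factor of Hspa5, with 307 and 451 counts and a difference of 0.24.

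Set side by side as sums over members, the endoplasmic reticulum stood below the mitochondrion and the cytosol by more than counting error. The intervals of the mitochondrion and the cytosol overlap, which alone does not settle whether those sums differ. The summed mitochondrial counts were 13557 and 18527, a difference of 0.14 (0.11 to 0.17), and the cytosolic counts were 164190 and 218846, a difference of 0.10 (0.09 to 0.11). The counts of the endoplasmic reticulum were 27800 and 35109, a difference of 0.024 (0.0008 to 0.046). This interval overlaps neither that of the mitochondrion nor that of the cytosol. The low value was not particular to the endoplasmic reticulum: the vesicle sum differed by 0.025 (-0.007 to 0.057). The sum of the group of other or uncertain place differed by -0.018 (-0.059 to 0.023), and that of the nuclear members by 0.097 (0.010 to 0.184). A few genes carry the sums of the 3 main compartments. Without the 3 most abundant members of each compartment, the sums differed by 0.12 (0.06 to 0.18) in the mitochondrion, 0.09 (0.07 to 0.11) in the cytosol and 0.002 (-0.04 to 0.04) in the endoplasmic reticulum. In a separate step, Hspd1, Hspe1 and Hspa9 were left out because their own intervals lay above 0. The other 6 mitochondrial genes summed to 4263 and 5534 counts, a difference of 0.06 (0.01 to 0.12), which overlaps the interval of the endoplasmic reticulum. Each gene left out lay above the mitochondrial sum, so this step had to lower it. It was not made in the other compartments, so that overlap sets a trimmed group against an untrimmed one. The genes themselves overlapped: mitochondrial differences ran from -0.06 to 0.29, cytosolic ones from -0.26 to 0.40 and those of the endoplasmic reticulum from -0.13 to 0.12. Per kilobase, the level of Hspa5 was 1.34 times that of its mitochondrial relative Hspa9 under the label Ctrl and 1.24 times under OE. In members with a mean of at least 1000 counts, the medians were 0.12 for 6 mitochondrial genes, 0.11 for 21 cytosolic genes and 0.037 for 8 genes of the endoplasmic reticulum, and 5, 18 and 7 of them lay above 0 (all such genes 52.4%). The interval lay above 0 for 3, 15 and 1 of them (all such genes 25.4%).

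**Figure D3:**
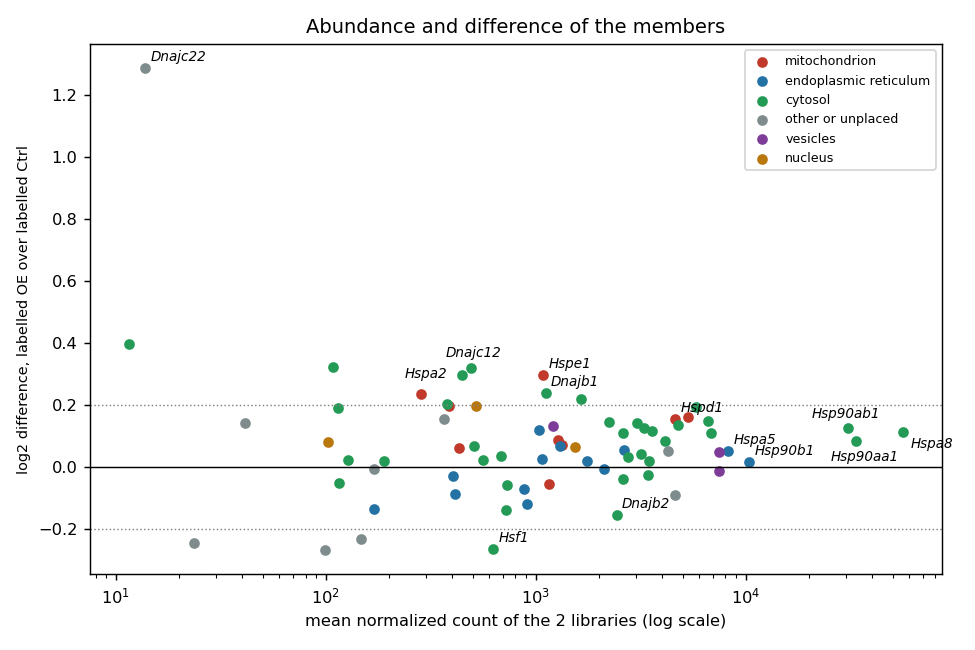
Each point is 1 member, coloured by compartment, with its mean normalized count over the 2 libraries on a log x axis and its log2 difference (labelled OE over labelled Ctrl) on the y axis; dotted lines stand at log2 0.2 in both directions. The most abundant members, Hspa8, Hsp90aa1 and Hsp90ab1, lie at 0.11, 0.08 and 0.12, the lumenal chaperones Hspa5 and Hsp90b1 at 0.05 and 0.02, and Dnajc22, at 1.29, rests on 7 and 22 counts.

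Vesicle and nuclear members were few. Dnajc5, the cysteine string protein that guards synaptic vesicles, had 6580 and 8446 counts and a difference of 0.05 (0.00 to 0.09). Dnajc6 (auxilin), which uncoats clathrin vesicles in neurons and is mutated in a juvenile form of parkinsonism, had 6712 and 8260 counts and a difference of -0.01 (-0.06 to 0.03). Dnajc13, a J-domain protein of endosomes, had 1031 and 1402 counts and a difference of 0.13 (0.01 to 0.25). The 3 nuclear genes lay between 0.07 and 0.20. In the group of other or uncertain place the median was -0.0083 over 9 genes. Past log2 0.2, 1 was higher (all genes 17.9%) and 3 were lower (all genes 16.6%). The 3 lower, Dnajb3, Dnajc4 and Hspb11, had 23 to 150 counts and intervals that include 0. The 1 higher was Dnajc22, with 7 and 22 counts and a difference of 1.29 (0.06 to 2.81), which at this depth is poorly measured. Hspa12a, a distant HSP70 relative, was the third member with an interval below 0, with 4237 and 4947 counts and a difference of -0.09 (-0.15 to -0.03), and it was picked out after its value was seen.

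The 11 members below the count minimum were mostly genes of other tissues. Dnajb8, Dnajc5b, Dnajc5g and Hspb9 had no count in either library, and a count of 0 allows up to 3 counts. The muscle-type small heat shock genes Hspb2, Hspb3 and Hspb7 had between 2 and 9 counts, and Dnajb13, a protein of cilia and sperm tails, had 0 and 4. Nothing can be said of a difference at these counts.

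Among the co-chaperones of the cytosol that were not members, Fkbp5 and Bag3 differed by more than any member compared except Dnajc22. They did so on 805 counts at most, and were picked out for their values. Fkbp5, an HSP90 partner that tempers the glucocorticoid receptor and is itself induced by glucocorticoids, had 388 and 805 counts and a difference of 0.74 (0.56 to 0.92). It and Bag3 were the highest of the 23 genes in this list. Ahsa1, Bag3, Chordc1, Cryab and Stip1 in the list were also counted among the HSF1 targets above. The median of the list was 0.086, 5 of 23 were higher past log2 0.2 (all genes 17.9%) and 1, Cryab, was lower (all genes 16.6%). Prefoldin, which hands new actin and tubulin to TRiC, had 5 measured subunits with a median of 0.012, and Pfdn1 was past log2 0.2, with 701 and 1017 counts. Immediate early genes, a rough sign of recent cell activity or handling, had a median of 0.0043 over 9 genes. Past log2 0.2, 3 of the 9 were higher (all genes 17.9%) and 1 was lower (all genes 16.6%).

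Markers of cell types differed between the libraries far more than the chaperones did, and their part in the chaperone differences was not tested. The marker lists were chosen with earlier results of these data known. For dopaminergic neurons all 14 markers were higher past log2 0.2 under the label OE (all genes 17.9%), with a median of 1.24. Their summed normalized counts were 28717 and 66698. Of 14 thalamus markers 11 were lower past log2 0.2 (all genes 16.6%) and 1, Amotl1, was higher by 0.22. The thalamus median was -1.30, with sums of 23109 and 14985. Gbx2, with 30 counts in the library labelled Ctrl, was at 0 in the other. All 11 oligodendrocyte markers were lower, 8 of them past log2 0.2 (all genes 16.6%), with a median of -0.32 and sums of 400384 and 334751. The medians were -0.096 for 9 astrocyte markers, -0.14 for 9 of microglia, -0.25 for 8 of endothelium, -0.44 for 8 of mural cells and -0.64 for 9 genes of motile cilia, of which Ccdc153 was at 0 in a library. With 1 library on each side, the genotype and a difference in the tissue taken cannot be told apart.

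**Figure D4:**
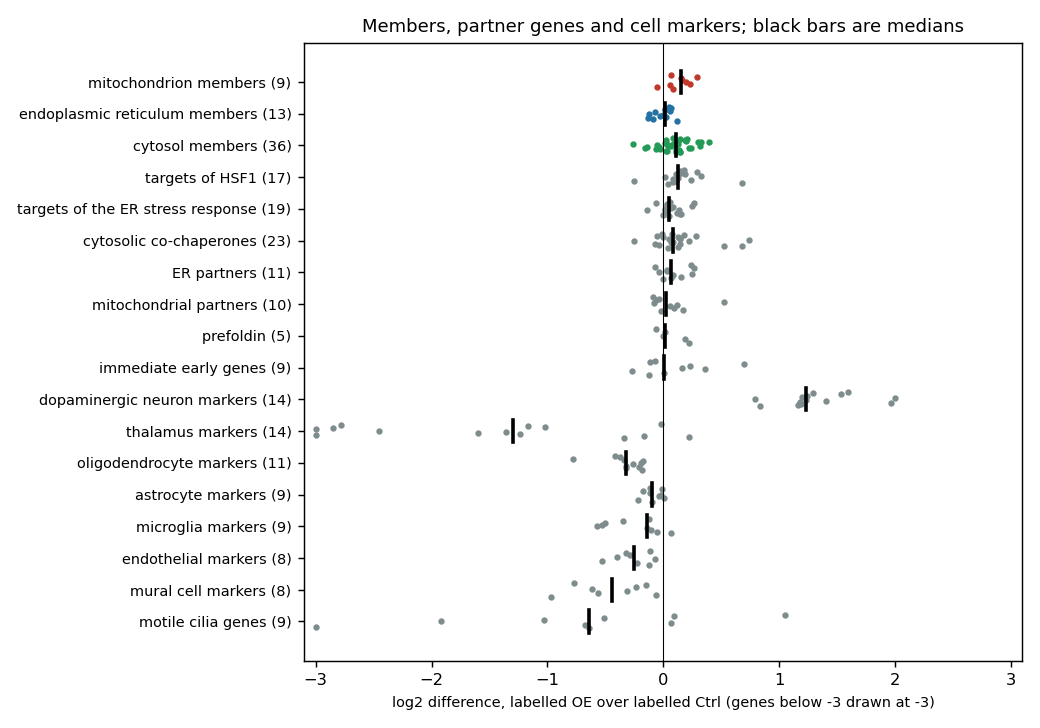
Each dot is 1 gene, placed by its log2 difference (labelled OE over labelled Ctrl), in rows for the members of 3 compartments, partner and target lists and cell markers, with the number of genes in brackets and the median as a black bar; genes below -3 are drawn at -3. The medians of the members and their partner lists lie between 0.004 and 0.15 with the immediate early genes, while those of the marker lists run from -1.30 for thalamus to 1.24 for dopaminergic neurons.

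Several members share sequence with other genes, so that their counts depend on how reads were shared out. Of all 50-base stretches of the transcript, 73.2% were also found in another gene for Hspa8, 62.3% for Hspa1b, 60.3% for Hspa1a, 58.5% for Hsp90aa1, 51.6% for Hspb1, 44.8% for Hspd1, 36.1% for Hspe1 and 35.8% for Dnajb6. Some of the closest copies are named as pseudogenes, such as Hspd1-ps3 and Hsp25-ps1, while Hspa1a and Hspa1b copy each other. For Hspa9, Hsp90ab1, Hsp90b1 and the 8 TRiC subunits the share was at most 4.49%, and for Hspa5, Hsph1 and Hspa4 it was 0. The differences of these genes therefore depend little or not at all on how such copies were resolved.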

How the data were processed

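RNA with poly(A) tails was made into stranded libraries and sequenced as paired ends of 50 bases by a company, whose pipeline estimated a count per gene. The table deposited by the authors holds these expected counts unscaled. They were rounded to whole numbers only for the counts printed here and for the counting intervals. The submitters' processing notes name the genome build mm10, while the pipeline's aligner and the gene annotation were not given in the sources used here. The labels do not say whether animals were pooled.

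Counts were scaled by TMM (edgeR 4.0.16, R 4.3.3), and log2 differences were computed with 0.5 added to each normalized count. Compared were the 15246 genes whose counts averaged at least 10. Intervals (95%, exact, Clopper-Pearson) treat the gene's counts as a binomial split between the libraries and were checked on simulated Poisson counts. That simulation makes the same assumption as the intervals, so it checks the computation and not other sources of error. Depth was 16984336 and 21326632 counts, and a count of 0 allows up to 3 counts. Reads carried no molecular identifiers that the sources name, so intervals and floors cover counting error only. Levels per kilobase used the longest GENCODE M21 transcript, and the same transcripts gave the shared stretches. Sequences come from the RefSeq promoter table on GRCm38.p6.

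Members and lists were chosen with earlier results of these data known. Values were given for members past log2 0.2 with an interval that leaves out 0, the 3 members with the highest level per length in each main compartment and family, a fixed set of well known members, and in partner lists the genes with the largest differences. Alternatives were other scalings (total counts, upper quartile, DESeq2 1.42.0 size factors), another pseudocount, other count minimums, a stricter call and other memberships.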

Additional observations from a re-analysis of the deposited data

How the results depend on the processing

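No paired analysis was possible because Ctrl and OE are 1 library each, and for the same reason none was left out. The median log2 difference ran from 0.052 to 0.081 for all members over 6 alternatives, and over 7 alternatives from 0.093 to 0.12 in the cytosol, 0.0008 to 0.030 in the endoplasmic reticulum and 0.14 to 0.17 in the mitochondrion. The number of members past log2 0.2 was 10 higher and 4 lower, and changed with the scaling, the call rule and the count minimum: the upper quartile gave 14 higher and total counts 9, requiring a counting interval that leaves out 0 gave 6 higher and 1 lower, a mean of at least 100 counts, which compares fewer genes, gave 2 lower, and no count minimum, which compares more genes, gave 8 lower. The higher members ranged from 6 to 14 over all 7 alternatives. Intervals recomputed under each scaling, chosen after seeing the data, lay above 0 for 22 (total counts) to 30 members (upper quartile) instead of 25, and Dnajc13 and Hspa5 lost theirs under total counts, as Dnajc5 did there and under DESeq2 size factors. Scaling moved Hspa4 between 0.18 and 0.21, Hspb8 between 0.19 and 0.22 and Hspb1 between 0.17 and 0.20, across or up to the fold of 0.2. No named member changed sign beyond its counting interval in the 144 values computed, and Dnajc10, between -0.02 and 0.01, was the one to cross 0. Depth limits the Hspb genes, Hspa1a, Hspa1b and Dnajc22 most.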
